A study of Mus musculus with 107 samples.

Results

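Hox genes were followed from cultured neural progenitor cells (NPC) into grafts in the mouse spinal cord and set beside the astrocytes of the host cord. They are the homeobox genes of the HoxA, HoxB, HoxC and HoxD clusters, taken as every gene whose RefSeq symbol is Hoxa, Hoxb, Hoxc or Hoxd with a number, and this rule found 39 of the 27179 genes in the count tables, none of them chosen for its values. HoxA on chromosome 6 holds 11 of them, HoxB on chromosome 11 holds 10, and HoxC on chromosome 15 and HoxD on chromosome 2 hold 9 each. Paralog groups 1 to 4 account for 12 genes, groups 5 to 9 for 15 and groups 10 to 13 for 12.

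RNA bound to ribosomes that carry an HA-tagged Rpl22 protein (RiboTag) was precipitated and sequenced in 107 libraries of 23 conditions, all of strain C57BL/6 and genotype RiboTag +. All NPC descend from 1 female embryonic stem cell (ESC) line whose tag was switched on by Sox2-Cre, so that grafted cells carry it and the cells of the recipient should not. Cultured groups were ESC (n = 4), NPC of one derivation at passage 5 (NPC P5), 15 (NPC P15) or 30 (NPC P30), with n = 4 for each, and NPC of 2 other derivations at passage 15 (NPC P15 D2, n = 6, and NPC P15 D3, n = 4). NPC had been induced with retinoic acid and purmorphamine, and were expanded in 100 ng/ml EGF and FGF. Differentiated cultures were held for 4 days in 1 ng/ml of these mitogens, alone (SPONT) or with CNTF or IGF-1 at 100 ng/ml, with 1, 5, 10 or 20% FBS, or with CNTF and 5% FBS (n = 4 each). Undifferentiated NPC were also passed through a grafting pipette in medium (NPC media), in DCH, the hydrogel used as carrier (NPC DCH), or in DCH after 4 hours (n = 5 each). Grafts were recovered 14 days after grafting from uninjured cord (graft uninjured 14 d), 5 or 14 days after grafting from a thoracic crush lesion (graft SCI 5 d and graft SCI 14 d) and 14 days after grafting from a double crush lesion (graft dSCI 14 d), with n = 5 each, and cells had been placed 2 days after injury. For the 14-day SCI grafts the paper counts the days from grafting in some places and from injury in others. Host astrocytes came from 73.12 Gfap-Cre RiboTag mice without injury (host healthy, n = 9) or 14 days after a crush (host SCI, n = 5). The Gfap promoter chooses the host cells, whereas the tag of a graft marks every cell of graft origin whatever its type. The labels do not name the derivation or passage of the NPC that were grafted, pipetted or differentiated, and the methods describe recipients as C57/BL6 mice of both sexes, wildtype or transgenic, aged from 8 weeks to 4 months at surgery.

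Hox proteins are transcription factors that give cells of the embryonic trunk and hindbrain their position along the head-to-tail axis. Genes at the low-numbered end of a cluster are switched on first and furthest forward, those at the high-numbered end later and further back, and neural cells keep much of the resulting combination for life. In the central nervous system groups 1 to 4 belong chiefly to hindbrain and neck, groups 5 to 9 to brachial and thoracic cord, and groups 10 to 13 to lumbar and sacral cord. Retinoic acid and the Cdx proteins switch Hox genes on during axis formation, Polycomb proteins hold unused ones silent, and Hox proteins bind DNA with Pbx and Meis partners.

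Upstream sequences from RefSeq for build GRCm38.p6 were at hand for 24 promoters of 22 Hox genes. From each cluster 1 is shown because the clusters differed in what they did in the grafts. None was at hand for Hoxc6, Hoxc8, Hoxc9, Hoxc10 or Hoxb13, genes with large changes in grafts, and Hoxc4, shown for HoxC, changed less. Each is the 250 bases before a transcript start, on the strand of the gene, and capitals mark matches to motifs searched on both strands. The motifs were the retinoic acid receptor half-site AGGTCA, the Cdx site TTTATG and the Hox-Pbx site TGATNNAT. Hoxa7 lies on the minus strand (chr6:52218574-52218823), Hoxb8 (chr11:96281655-96281904), Hoxc4 (chr15:103034145-103034394) and Hoxd8 (chr2:74704365-74704614) on the plus strand.
Hoxa7: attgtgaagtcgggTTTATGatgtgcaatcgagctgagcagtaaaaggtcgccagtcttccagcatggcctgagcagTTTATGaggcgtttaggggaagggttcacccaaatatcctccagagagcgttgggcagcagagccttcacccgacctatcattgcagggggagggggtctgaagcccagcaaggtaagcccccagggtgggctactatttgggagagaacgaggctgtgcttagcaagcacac
Hoxb8: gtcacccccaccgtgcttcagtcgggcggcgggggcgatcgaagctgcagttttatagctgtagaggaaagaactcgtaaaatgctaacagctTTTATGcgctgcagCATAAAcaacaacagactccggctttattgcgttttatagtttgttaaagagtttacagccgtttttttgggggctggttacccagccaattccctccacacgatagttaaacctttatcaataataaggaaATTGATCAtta
Hoxc4: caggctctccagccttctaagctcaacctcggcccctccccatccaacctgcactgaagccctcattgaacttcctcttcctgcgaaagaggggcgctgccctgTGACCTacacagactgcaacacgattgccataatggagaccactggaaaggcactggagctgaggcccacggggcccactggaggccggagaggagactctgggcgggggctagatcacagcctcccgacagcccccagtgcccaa
Hoxd8: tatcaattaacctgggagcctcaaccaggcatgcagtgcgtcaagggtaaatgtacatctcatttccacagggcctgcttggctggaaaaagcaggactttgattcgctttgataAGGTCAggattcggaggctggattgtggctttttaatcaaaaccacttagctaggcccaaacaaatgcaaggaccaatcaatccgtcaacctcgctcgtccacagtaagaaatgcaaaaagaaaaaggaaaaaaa
Hoxa7 has 2 Cdx matches, Hoxb8 has 2 Cdx matches and 1 Hox-Pbx match, and Hoxc4 and Hoxd8 have 1 half-site each, that of Hoxc4 on the reverse strand. Half-sites stood in 6 of the 24 Hox promoters (25%, those of Hoxb4, Hoxc4, Hoxd3, Hoxd4, Hoxd8 and Hoxd10) against 14.0% of all 32851 promoters. Cdx sites stood in 5 (20.8%, those of Hoxa7, Hoxb8, Hoxd3, Hoxd4 and Hoxd11) against 10.8%, and Hox-Pbx sites in 4 (16.7%, those of Hoxa2, Hoxb1, Hoxb8 and Hoxd11) against 7.68%. These are matches of letters in short windows and not measured sites.

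Counts summed to 30473157 to 147764968 per library in the 96 libraries with paired reads and to 12286240 to 18085106 in the 11 with single reads, which are NPC P15 D2 and the 5-day grafts. A few libraries stood apart and are followed below. Summed CPM of 10 myeloid markers was 18190 in replicate 4 of the 5-day grafts against 764 to 1403 in the other 4, and 12962 in replicate 4 of the dSCI grafts, the highest of that group. Summed CPM of 10 neuron markers was 7380 in replicate 5 of the uninjured grafts, the highest of all grafts. Healthy host libraries fell into replicates 1 to 4 and 5 to 9 by their Hox levels, and replicates 8 and 9 alone of the healthy hosts had almost no counts of Y-linked genes, like every host SCI library. The defining astrocyte markers of the host groups were present, with 8 astrocyte genes summing to 28322 to 50801 CPM.

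Levels below are FPKM, counts per kilobase of exon scaled to the library total, so that genes can be compared with each other. Changes are log2 fold changes (log2FC) with their standard error from edgeR's quasi-likelihood test on the counts, and a gene was called at a Benjamini-Hochberg adjusted p below 0.01 over all genes tested. Nothing in the labels says that libraries of cultures came from separate experiments, so those p-values may measure technical spread only. In bulk libraries fewer cells of a type and less RNA per cell cannot be told apart. Reads were counted without strand, so antisense and overlapping genes of the clusters, such as Hotairm1, Hoxaas3, Hoxb3os, Hoxb5os and Hoxd3os1, cannot be separated from their Hox neighbours.

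ESC and NPC were compared first, to see which Hox genes the cultured cells carried. Most were switched on between the 2 states. Their summed level was 8.28 ± 1.37 FPKM (SD, n = 4) in ESC and 260 ± 9.50 (n = 4) in NPC P15. Of 30 tested, 25 were higher in NPC P15 than in ESC and 1 lower, where 32.2% of all genes tested rose, 34.9% fell and 67.2% changed. Hoxb8, a gene of trunk levels, read 0.0721 to 0.115 FPKM in ESC and 37.0 to 45.0 in NPC P15, and Hoxa5, of cervical and brachial levels, 0.0447 to 0.345 and 43.8 to 50.7. The groups did not overlap, and log2FC was 8.61 ± 0.15 (adjusted p = 2.19e-12) for Hoxb8 and 7.69 ± 0.40 (adjusted p = 1.05e-08) for Hoxa5. The single gene that was lower was Hoxc13, at 1.19 ± 0.165 FPKM in ESC and at 0 counts in NPC P15.

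All 4 clusters were in use in NPC, but unequally. Of the summed Hox FPKM of NPC P15, HoxA held 46.9%, HoxB 42.1%, HoxC 4.80% and HoxD 6.25%. Groups 5 to 9 held 70.6%, groups 1 to 4 held 26.3% and groups 10 to 13 held 3.14%. Across all 23 conditions 9 genes, Hoxa11, Hoxa13, Hoxb1, Hoxc11, Hoxc12, Hoxd10, Hoxd11, Hoxd12 and Hoxd13, stayed below a mean of 1 FPKM, and Hoxc11, Hoxc12 and Hoxd12 had 1 count each over all libraries. Members with a mean of at least 1 FPKM numbered 3 in ESC, 22 in NPC P15, 23 in NPC DCH, 23 to 28 in the grafts and 25 in each host group.

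**Figure D1:**
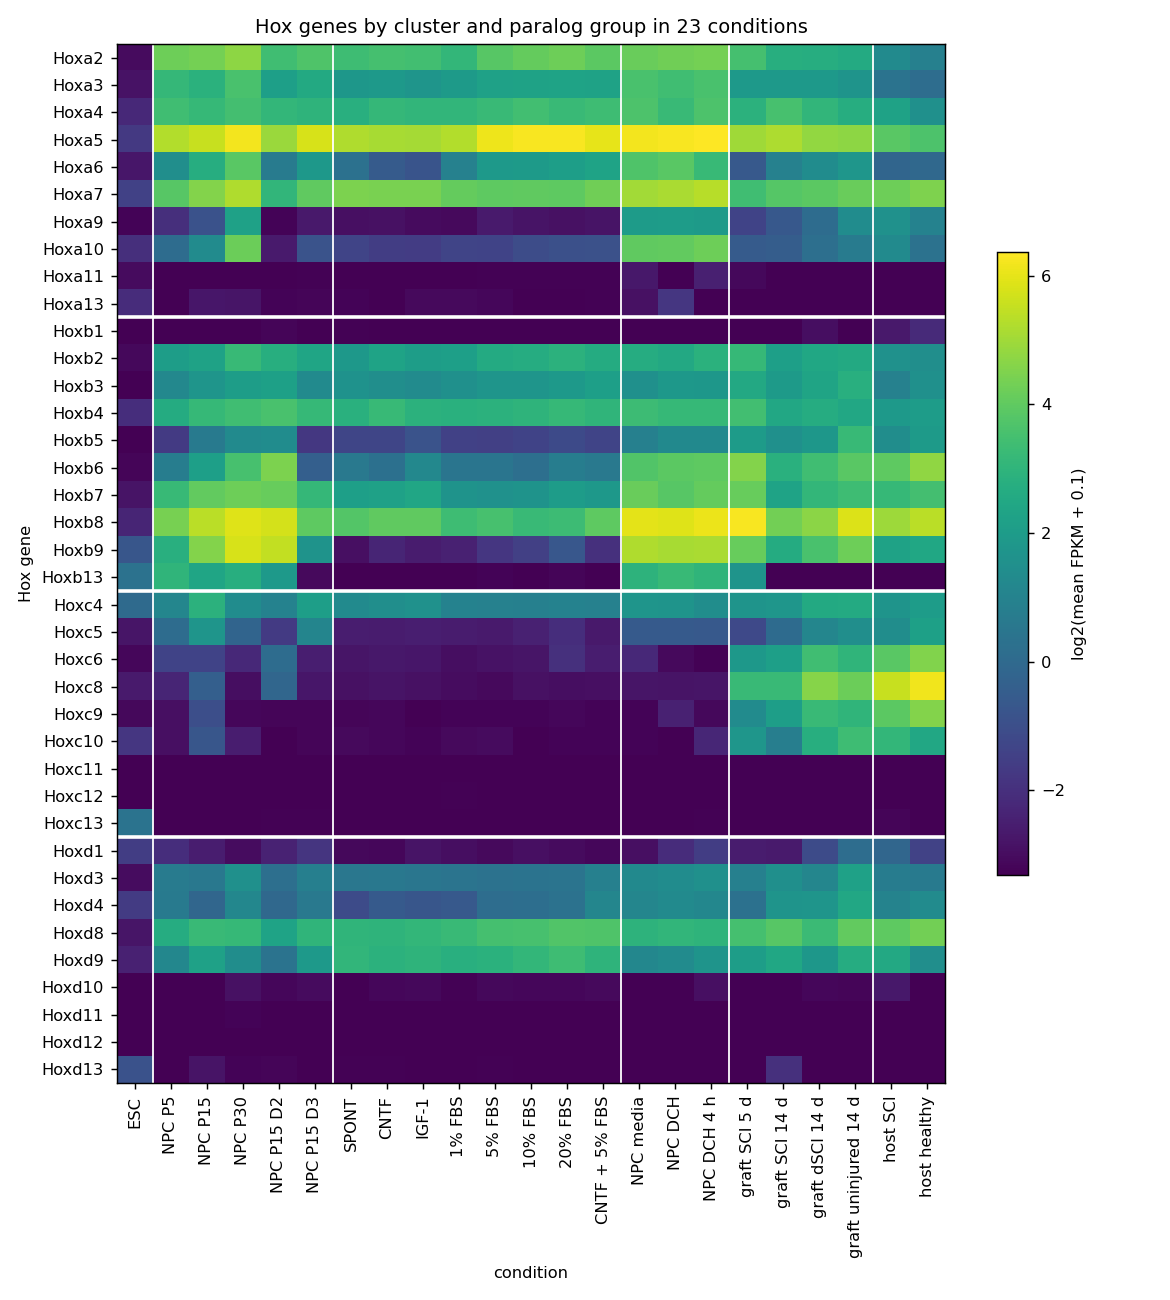
Each row is one Hox gene, with one member left out, ordered by cluster and paralog group, each column one of the 23 conditions, and colour gives log2(mean FPKM + 0.1). Most HoxA and HoxB genes of groups 2 to 8 are bright from NPC P5 onward, whereas Hoxc6, Hoxc8, Hoxc9 and Hoxc10 are dark in NPC DCH (means of at most 0.0848 FPKM) and bright in grafts and hosts.

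The Hox code of NPC was not the same at every passage. Between NPC P15 and NPC P30, 12 of 28 genes tested were higher and 5 lower, where 15.3% of all genes rose, 14.7% fell and 30.0% changed. Hoxa10, a gene of lumbar levels, read 1.41 to 3.18 FPKM in NPC P15 and 16.7 to 19.7 in NPC P30 (log2FC 2.84 ± 0.17, adjusted p = 2.84e-11), and Hoxa9 rose by 3.31 ± 0.17 (adjusted p = 1.76e-12) from a mean of 0.447 to 4.55 FPKM. Both groups were apart in every library. In the other direction Hoxc4, Hoxc5, Hoxc8, Hoxc9 and Hoxd9 were lower at P30, Hoxc8 at 0.0285 against 0.663 FPKM (log2FC -4.45 ± 0.93, adjusted p = 0.000577). Calls of Hoxc9 and Hoxd9 at P30 were lost without any of several libraries, Hoxc9 at -4.17 without NPC P15 replicate 1. From NPC P5 to NPC P15, 17 of 29 genes tested were lower at P5 and 1, Hoxb13, was higher, beside 17.6% of all genes lower, 17.9% higher and 35.5% in all. Hoxb9 read 6.30 to 7.62 FPKM at P5, 22.3 to 25.4 at P15 and 53.1 to 55.5 at P30, so that no library of one passage overlapped those of the next. The HoxC share of summed Hox FPKM did not follow passage in this way, at means of 1.98, 4.80 and 0.880% at P5, P15 and P30.

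Derivations also differed. NPC P15 D2 differed from NPC P15 in 20 of 26 genes tested, 7 higher and 13 lower, where 26.5% of all genes were higher, 29.4% lower and 55.9% changed. All 7 that were higher belong to HoxB, Hoxb6 by the most (22.1 against 4.36 FPKM, log2FC 2.35 ± 0.13, adjusted p = 7.98e-12), and 8 of 9 HoxA genes tested were lower, Hoxa10 at 0.0641 against 2.47 FPKM. These libraries were read as single reads and the others as pairs, so derivation and read type cannot be told apart. NPC P15 D3 had 2 genes higher and 15 lower of 29 tested, where 23.6% of all genes were higher, 24.5% lower and 48.0% changed. Hoxb13, the last gene of HoxB and a marker of the caudal end of the axis, summed to 10 counts over the 4 D3 libraries (0.0114 to 0.0358 FPKM) and read 4.16 to 5.67 FPKM in NPC P15 (log2FC -8.01 ± 0.30, adjusted p = 7.41e-10). Hoxb9 was at 3.08 ± 0.153 FPKM in D3 against 23.9 ± 1.32 in NPC P15.

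When NPC P15 are compared with cells held for 4 days in low mitogen, 17 of 28 genes tested were lower in SPONT and 1, Hoxd9, was higher, beside 27.4% of all genes lower, 29.8% higher and 57.2% changed. Hoxb9 read 0.0229 to 0.0430 FPKM in the SPONT libraries, under every NPC library, and log2FC against NPC P15 was -9.33 ± 0.17 (adjusted p = 2.45e-11). Against NPC P15 D3 in place of NPC P15, Hoxb5 and Hoxb6 reversed to log2FC of 0.70 and 1.15, and Hoxb8, which fell by 1.46 ± 0.12 from NPC P15, fell by 0.13 (adjusted p = 0.31). Which NPC the differentiated cells came from therefore bears on these values. Hoxa5 (37.3 ± 4.37 FPKM), Hoxa7 (22.2 ± 2.44) and Hoxb8 (13.6 ± 1.87) were the most abundant Hox transcripts of SPONT.

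CNTF, IGF-1, 1% FBS and 20% FBS were tested against SPONT, and the other additives are given by level alone. Summed Hox FPKM was 137 ± 9.19 in SPONT, 176 ± 13.0 with 5% FBS, 188 ± 11.6 with 10% FBS, 188 ± 6.44 with CNTF and 5% FBS and 199 ± 4.09 with 20% FBS (n = 4 each). With CNTF, 2 of 23 were higher and 0 lower (10.8% of all genes higher, 9.15% lower, 19.9% in all), Hoxb2 by 0.48 ± 0.08 (adjusted p = 0.0014) and Hoxb4 by 0.40 ± 0.08 (adjusted p = 0.00387). The call of Hoxb4 was lost without any of 5 of the 8 libraries. IGF-1 and 1% FBS gave 0 calls among 23 by edgeR, 9 at an unadjusted p below 0.05 in each case, and 2 and 1 by DESeq2. Among all genes by edgeR IGF-1 gave 2.80% higher, 3.75% lower and 6.55% in all, and 1% FBS gave 5.63%, 3.15% and 8.78%. With 20% FBS, 10 of 24 were higher and 1, Hoxa7, was lower (27.6% of all genes higher, 27.9% lower, 55.5% in all). Hoxa5 read 76.1 to 81.8 FPKM there and 32.3 to 41.8 in SPONT (log2FC 1.03 ± 0.08, adjusted p = 9.03e-07). Hoxb13 was at 0 counts in SPONT and in the cultures with CNTF, IGF-1 and 1% FBS and had 6 counts over the 4 cultures with 20% FBS.

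NPC that had passed through the pipette in the hydrogel served as the pre-graft group. NPC DCH and NPC media differed in 0 of 25 Hox genes by edgeR (1 at an unadjusted p below 0.05, 0 by DESeq2), where 1.91% of all genes were higher, 2.41% lower and 4.32% changed. NPC DCH summed to 367 ± 10.8 Hox FPKM (n = 5), of which HoxA held 52.8%, HoxB 41.9%, HoxC 1.05% and HoxD 4.27%. The 8 genes with the highest means were Hoxa5 (77.6 FPKM), Hoxb8 (60.2), Hoxa7 (35.3), Hoxb9 (34.2), Hoxa2 (19.4), Hoxa10 (16.4), Hoxb6 (15.0) and Hoxa6 (14.8). In level of Hoxa9 and Hoxa10, 4.02 and 16.4 FPKM, this group was nearer to NPC P30 (4.55 and 18.1) than to NPC P15 (0.447 and 2.47).

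The main question was whether grafted NPC hold this code or take on that of the astrocytes of the host cord. All 4 graft groups were compared with the same NPC DCH libraries, so these comparisons share their controls and are given side by side. In grafts of uninjured cord 10 of 29 Hox genes tested were higher and 7 lower (28.4% of all genes higher, 25.3% lower, 53.7% in all). In SCI grafts at 14 days 6 of 28 were higher and 11 lower (28.4%, 23.3% and 51.6%), in dSCI grafts 5 and 10 of 28 (28.5%, 23.4% and 51.9%), and in SCI grafts at 5 days 4 and 8 of 28 (27.2%, 26.7% and 53.9%). The share of Hox genes called was 58.6, 60.7, 53.6 and 42.9% by edgeR. For 5-day SCI grafts, single-read libraries set against paired ones, DESeq2 called 20 where edgeR called 12. The shares over all genes are those of edgeR, so the count by DESeq2 has none beside it. Median log2FC over the Hox genes tested was 0.01, -0.24, -0.10 and -0.08, beside 0.12, 0.15, 0.15 and 0.10 over all genes.

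Against NPC DCH, no HoxA gene was called higher in any of the 4 graft groups, and 6, 7, 7 and 7 of 9 tested were lower in uninjured, 14-day SCI, dSCI and 5-day SCI grafts. Against NPC P15 D2 in place of NPC DCH, 15 of these HoxA differences had the opposite sign. No HoxC gene was called lower, and 6, 4, 5 and 4 of 6 tested were higher. HoxB had 2 higher and 1 lower of 9 in uninjured grafts, and 4, 3 and 1 lower with none higher in the others. HoxD had 2 of 5 and 2 of 4 higher in uninjured and 14-day SCI grafts and 0 of 4 in each of the others. As a share of summed Hox FPKM, HoxC went from 1.05 ± 0.131% in NPC DCH to 8.89 ± 8.36, 13.1 ± 6.55, 25.9 ± 7.27 and 18.4 ± 3.43% in 5-day SCI, 14-day SCI, dSCI and uninjured grafts (n = 5 each). It stood at 38.6 ± 0.854% in host SCI and 43.8 ± 1.40% in host healthy astrocytes. The HoxC share of every graft library, 3.12% at the lowest, was above that of every NPC DCH library, 1.17% at the highest, and the highest, 33.6%, was under the 37.8% of the lowest host library. The lowest graft share was below those of NPC P15 (3.95 to 5.27%) and NPC P15 D3 (3.60 to 3.86%).

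**Figure D2:**
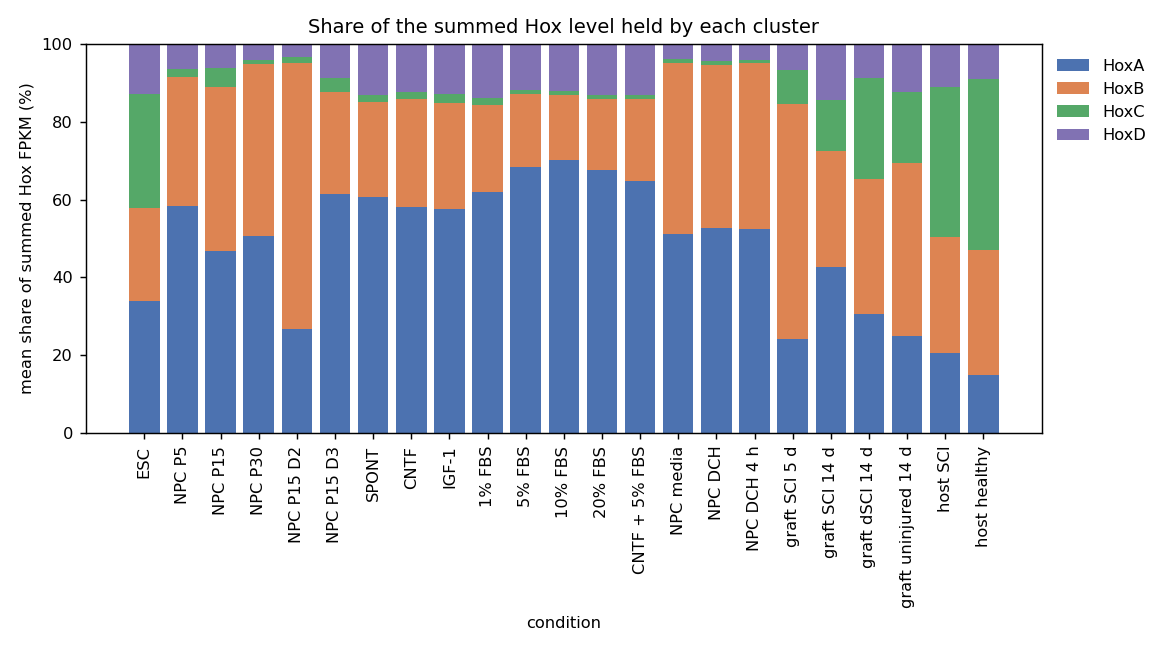
Stacked bars give the mean share of the summed Hox FPKM (%) held by HoxA, HoxB, HoxC and HoxD in each of the 23 conditions. HoxC takes at most 4.80% in any NPC group, 8.89 to 25.9% in the graft groups and 38.6 and 43.8% in the host groups.

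Hoxc6, Hoxc8, Hoxc9 and Hoxc10 were low or at 0 in NPC DCH, with means of at most 0.0848 FPKM, and had counts in all 20 graft libraries. Hoxc6, a gene of brachial cord (chr15:102998226-103011882 in mm10), read 0.0566, 0.00657, 0.00941, 0 and 0.0132 FPKM in NPC DCH replicates 1 to 5, which is 10, 1, 2, 0 and 2 counts. It read 2.26, 1.95, 1.60, 6.91 and 4.64 FPKM in 5-day SCI grafts and 3.01, 1.73, 1.49, 5.06 and 10.1 in 14-day SCI grafts. In dSCI grafts Hoxc6 was at 19.8, 6.32, 8.35, 13.0 and 5.53 FPKM and in uninjured grafts at 6.74, 9.70, 2.09, 8.70 and 13.3. No graft library came near the pre-graft range. Log2FC of Hoxc6 was 7.67 ± 0.96 (adjusted p = 2.28e-05) at 5 days, 8.32 ± 1.02 (1.15e-05) in 14-day SCI, 9.44 ± 0.78 (6.01e-07) in dSCI and 8.86 ± 0.91 (3.34e-06) in uninjured grafts.

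Hoxc8, which acts at brachial and thoracic levels (chr15:102990539-102994275), had 3 to 17 counts in the NPC DCH libraries, 0.0120 to 0.0818 FPKM. It read 9.23, 6.38, 4.27, 19.4 and 7.97 FPKM in 5-day SCI grafts, 5.12, 6.58, 4.82, 16.4 and 14.1 in 14-day SCI grafts, 37.1, 25.8, 20.2, 29.3 and 8.63 in dSCI grafts and 14.9, 17.4, 14.0, 15.2 and 29.5 in uninjured grafts. The spread within a graft group was up to several-fold, yet the lowest graft value stood far above the highest NPC DCH value. Log2FC of Hoxc8 was 7.93 ± 0.67 (adjusted p = 8.26e-07), 8.20 ± 0.67 (2.9e-07), 9.40 ± 0.51 (2.35e-08) and 8.80 ± 0.52 (3.66e-08) in the same order. Hoxc9, a thoracic gene that separates thoracic from limb-level motor columns (chr15:102977032-102984444), read 0.0112, 0.0391, 0.336, 0.0116 and 0.0263 FPKM in NPC DCH. It read 0.335, 0.606, 0.317, 8.67 and 2.21 in 5-day SCI grafts, so that these groups overlapped, and 4.09, 2.19, 3.21, 4.37 and 7.00 in 14-day SCI grafts. In dSCI grafts Hoxc9 was at 15.0, 7.67, 7.07, 13.0 and 4.14 FPKM and in uninjured grafts at 6.19, 10.8, 2.72, 6.74 and 14.0. Its log2FC was 4.97 ± 1.36 (adjusted p = 0.00654), 5.96 ± 0.99 (0.000166), 6.96 ± 0.97 (4.96e-05) and 6.57 ± 1.04 (0.000124). The call of Hoxc9 at 5 days rested on single libraries. Without graft replicate 4 its log2FC was 3.41 (adjusted p = 0.0295), and it was also lost without graft replicate 5 (5.02, 0.0114) or NPC DCH replicate 1 (4.69), 2 (4.79), 4 (4.69) or 5 (4.74).

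Hoxc10, a gene of lumbar cord, had 1 count over the 5 NPC DCH libraries, so no fold is given. It read 1.53, 0.631, 1.08, 10.1 and 3.04 FPKM in 5-day SCI grafts, 2.02, 2.24, 0.855, 1.80 and 1.37 in 14-day SCI grafts, 6.34, 8.24, 5.55, 10.0 and 3.34 in dSCI grafts and 6.36, 13.0, 7.14, 3.93 and 20.6 in uninjured grafts, and it was called higher in each. The rostral members of the cluster changed less. Hoxc4 was at a mean of 3.14 FPKM in NPC DCH, 3.15 and 3.34 in SCI grafts at 5 and 14 days, 5.89 in dSCI and 6.04 in uninjured grafts. It was called in dSCI (log2FC 1.13 ± 0.32, adjusted p = 0.00911) and uninjured grafts (0.96 ± 0.26, adjusted p = 0.00616), calls that were lost without any NPC DCH library and without most graft libraries (0.83 without dSCI replicate 1, 0.93 without uninjured replicate 1). Hoxc5 was higher in uninjured grafts, at 2.68 ± 0.732 against 0.572 ± 0.291 FPKM (log2FC 2.26 ± 0.48, adjusted p = 0.00126).

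**Figure D3:**
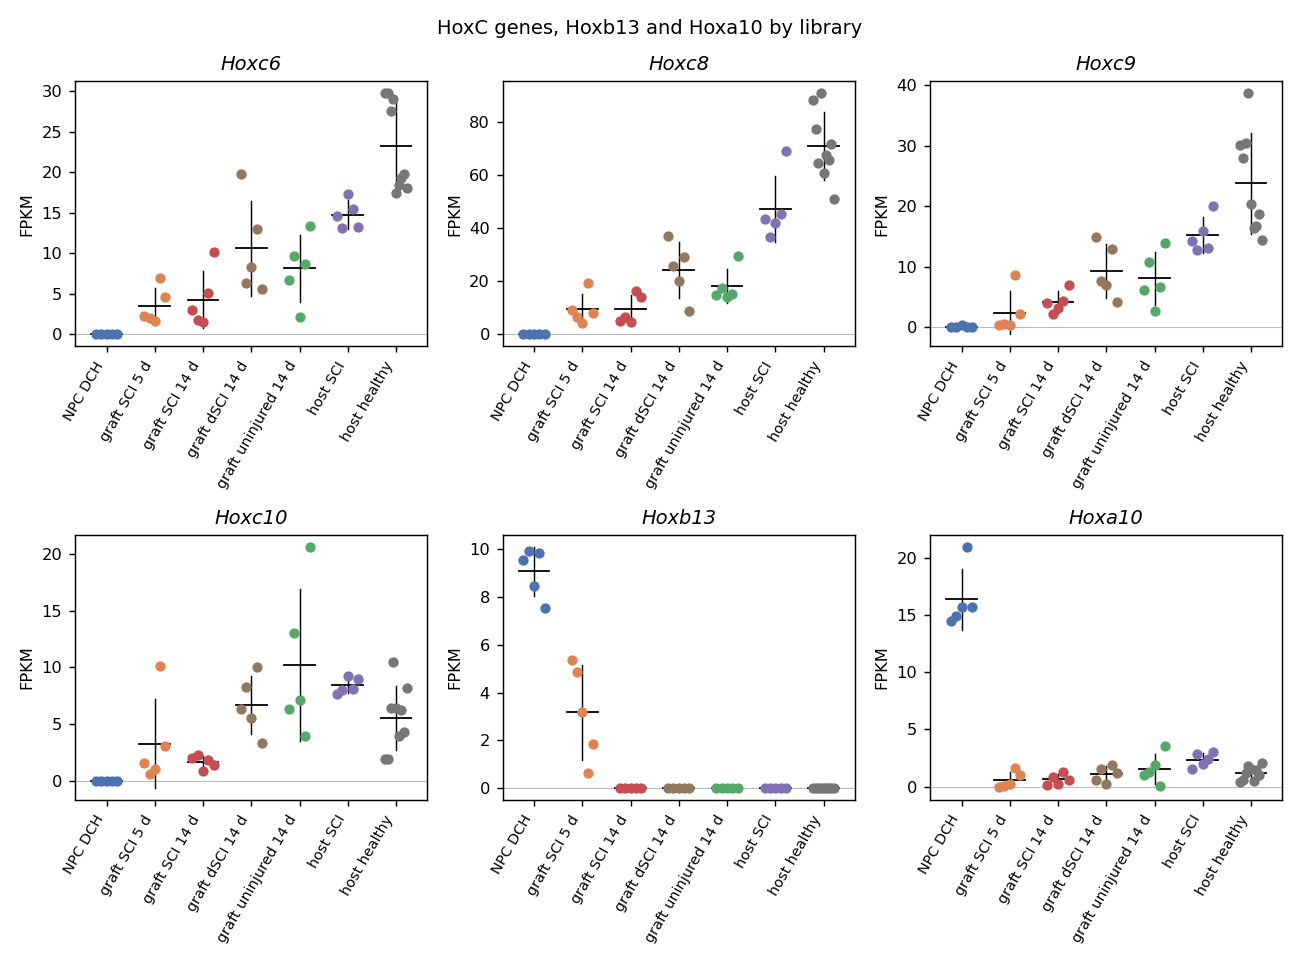
Points are libraries in replicate order, horizontal bars group means and vertical lines 1 SD, on linear FPKM axes that differ between genes, for NPC DCH, the 4 graft groups and the 2 host groups. Hoxc6, Hoxc8, Hoxc9 and Hoxc10 go from near 0 in NPC DCH to values that reach into or toward the host range, whereas Hoxb13 (mean 9.08 FPKM in NPC DCH) is at 0 in all 15 grafts of 14 days and Hoxa10 falls from 16.4 FPKM to means of 0.590 to 1.55.

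Markers of cells other than progenitors were also higher in the graft libraries than in NPC DCH. Some of them, those of astrocytes and oligodendrocytes, mark types that the paper reports among the progeny of grafted cells. The paper also reports minimal RNA recovered by precipitation from lesions without a graft. Summed CPM of 10 myeloid markers was 0.763 to 1.93 in NPC DCH and 218 to 18190 in grafts. In each graft group 10 of 10 were called higher, beside the shares of all genes higher given above with the Hox counts. For 10 neuron markers the ranges were 2.37 to 5.37 and 86.4 to 7380, for 6 oligodendrocyte markers 9.64 to 18.7 and 1159 to 25780, for 6 endothelial markers 1.23 to 3.01 and 23.1 to 607, and for 5 fibroblast and meningeal markers 12.7 to 18.7 and 944 to 21867. For 8 astrocyte markers they were 2266 to 2415 and 7207 to 27812. In NPC DCH, Ptprc and Cdh5, which mark leukocytes and endothelium, were at most at 2 counts in a library. Y-linked genes summed to at most 0.634 CPM in a graft, and also to at most 0.0512 in host SCI libraries. The part of other cells in the HoxC values was not tested.

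Hoxb13 (chr11:96194316-96196610) went the other way. It read 9.54, 9.94, 8.49, 9.86 and 7.55 FPKM in NPC DCH and 5.35, 4.85, 3.17, 0.639 and 1.83 in 5-day SCI grafts, which is 145, 160, 109, 20 and 57 counts. All 15 libraries of 14-day grafts and the 5 host SCI libraries had 0 counts, and 1 of 9 healthy hosts had 2. Set against 3 counts over a group, Hoxb13 was at least 2526-fold lower in uninjured, 1957-fold lower in 14-day SCI and 2305-fold lower in dSCI grafts than in NPC DCH. At 5 days log2FC was -1.44 ± 0.44 with an adjusted p of 0.0119, which missed the threshold although every graft library was below every NPC DCH library. NPC P15 D3 had 10 counts of Hoxb13 in all and SPONT had none. What grafting did and which derivation was grafted cannot be told apart for this gene.

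Hoxa10 (chr6:52231197-52240854) read 14.5, 14.9, 15.7, 20.96 and 15.7 FPKM in NPC DCH. It read 0, 0.0409, 0.255, 1.66 and 0.996 in 5-day SCI grafts, 0.174, 0.858, 0.237, 1.29 and 0.544 in 14-day SCI grafts, 0.537, 1.56, 0.189, 1.92 and 1.17 in dSCI grafts and 1.01, 1.23, 1.91, 0.0355 and 3.57 in uninjured grafts. All 20 graft libraries were below all 5 pre-graft ones, and the highest values of 5-day SCI, dSCI and uninjured grafts reached the host SCI range of 1.56 to 2.99. Log2FC of Hoxa10 was -4.66 ± 0.81 (adjusted p = 0.000291), -4.37 ± 0.50 (6.61e-06), -3.59 ± 0.54 (8.29e-05) and -3.37 ± 0.73 (0.00137). The size and even the direction depended on the NPC used as reference. Against NPC P15 the log2FC was -1.93, -1.64, -0.86 and -0.64 and not called, and against NPC P15 D3 it was 0.40, 0.65, 1.42 and 1.66. Hoxa9 had means of 4.02 FPKM in NPC DCH and of 0.284, 0.532, 0.976 and 2.50 in the grafts, called lower in all but the uninjured ones, and it too was higher in 14-day SCI and dSCI grafts than in NPC P15 (log2FC 0.62 and 1.37).

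Hoxa5, Hoxa7, Hoxb8 and Hoxb9, the highest of NPC DCH, were still present in every graft library. Not all genes of groups 5 to 9 held in this way. Hoxa6 fell from a mean of 13.0 CPM in NPC DCH to 0.486 CPM in 5-day SCI grafts (log2FC -4.63 ± 0.71, adjusted p = 0.000117). Hoxa9 fell there by -3.69 ± 0.77 (adjusted p = 0.00116). In 14-day SCI grafts Hoxa6 missed the threshold (-2.51 ± 1.02, adjusted p = 0.0471). Hoxa5 (chr6:52201754-52204587) read 75.0, 68.5, 73.1, 84.0 and 87.2 FPKM in NPC DCH. It read 44.2, 32.6, 34.6, 15.6 and 29.5 in 5-day SCI grafts, 35.0, 38.5, 39.1, 45.7 and 22.4 in 14-day SCI grafts, 27.8, 32.7, 46.2, 15.0 and 18.7 in dSCI grafts and 28.1, 22.2, 33.2, 26.0 and 22.2 in uninjured grafts. Every graft lay below every pre-graft library and most lay above the host SCI range of 12.5 to 15.8. Log2FC of Hoxa5 was -1.22 ± 0.21 (adjusted p = 0.00024), -0.78 ± 0.15 (0.000423), -1.21 ± 0.22 (0.000427) and -1.54 ± 0.12 (3.27e-07). Hoxa7 had means of 35.3 FPKM in NPC DCH and of 10.3, 14.0, 15.0 and 17.7 in 5-day SCI, 14-day SCI, dSCI and uninjured grafts, with log2FC of -1.67, -1.001, -1.01 and -0.97, all called. Against NPC P15 D2, in which HoxA is low, Hoxa5 and Hoxa7 changed sign in 7 of the 8 comparisons (log2FC 0.06 to 1.11).

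Hoxb8 (chr11:96279401-96285325) stood at 56.6, 62.1, 69.8, 52.5 and 59.9 FPKM in NPC DCH, 114, 84.5, 77.3, 51.2 and 65.7 in 5-day SCI grafts and 49.3, 54.0, 45.0, 38.7 and 104 in uninjured grafts, groups that overlapped and were not called apart. It was lower at 14 days in SCI, with 12.8, 18.4, 14.6, 33.3 and 18.5 FPKM (log2FC -1.27 ± 0.25, adjusted p = 0.000556), and in dSCI grafts, with 28.3, 28.5, 28.0, 31.98 and 11.7 (log2FC -0.997 ± 0.14, adjusted p = 6.65e-05). Hoxb9 (chr11:96271330-96276595) had 31.6 to 37.7 FPKM in NPC DCH and 14.5, 22.9, 22.8, 11.1 and 14.3 in 5-day SCI grafts, 7.45, 6.38, 3.92, 3.11 and 9.55 in 14-day SCI grafts, 16.7, 9.60, 11.7, 14.5 and 7.35 in dSCI grafts and 15.1, 19.8, 13.1, 13.9 and 32.8 in uninjured grafts. It was called lower in the injured cords, by -0.92 ± 0.17, -2.13 ± 0.29 and -1.25 ± 0.16, and missed the threshold in uninjured cord (-0.82, adjusted p = 0.0106). Against NPC P15 D3 both directions changed, Hoxb8 to 0.53 and 0.80 in 14-day SCI and dSCI grafts and Hoxb9 to 1.20, 2.07 and 2.45 in 14-day SCI, dSCI and 5-day SCI grafts. By contrast, Hoxc6 and Hoxc8 were called higher against each of the 5 NPC groups used as reference. The size of their rise still depended on the reference. Mean Hoxc6 and Hoxc8 were 0.0413 and 0.118 CPM in NPC DCH, 0.680 and 1.88 in NPC P15 and 2.33 and 2.34 in NPC P15 D2. In 5-day SCI grafts they were 8.36 and 26.8 CPM.

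**Figure D4:**
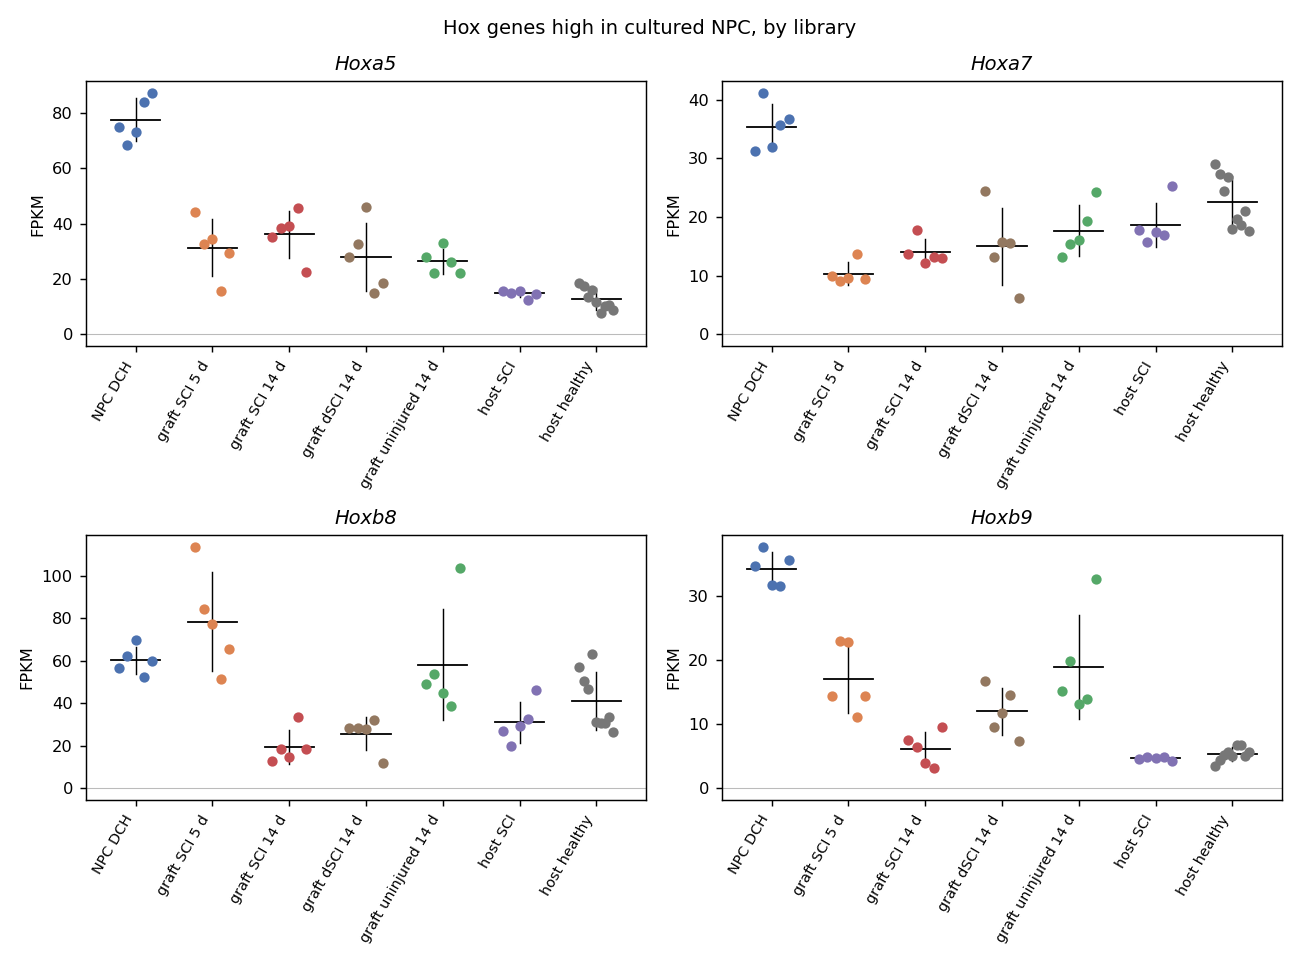
Points are libraries in replicate order, horizontal bars group means and vertical lines 1 SD, on linear FPKM axes, for Hoxa5, Hoxa7, Hoxb8 and Hoxb9. Hoxa5 and Hoxb9 fall from means of 77.6 and 34.2 FPKM in NPC DCH to between the pre-graft and host levels, and Hoxb8 of 5-day and uninjured grafts overlaps the pre-graft range.

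Among other genes of HoxA, HoxB and HoxD the calls differed in direction. Hoxa3 was called lower in all 4 graft groups (means of 10.6 FPKM in NPC DCH and 3.62, 3.67, 3.67 and 3.12 in grafts). Hoxa2 was called in 14-day SCI (6.73 FPKM) and uninjured grafts (5.98 FPKM, against 19.4 in NPC DCH). In dSCI grafts the calls of Hoxa3 and Hoxa6 were each lost without any of several libraries, among them dSCI replicate 1 (log2FC -1.24 and -2.02). Against NPC DCH, Hoxb3 and Hoxb5 were called higher in uninjured grafts, at 6.82 and 9.18 FPKM against 3.51 and 2.32. The call of Hoxb3 (log2FC 0.98 ± 0.28, adjusted p = 0.00885) was lost without any of the NPC DCH libraries or of uninjured replicates 1 to 3 (0.74 without replicate 1), and neither gene was called between uninjured and injured grafts at 14 days. In HoxD, Hoxd8 was higher in 14-day SCI and uninjured grafts (means of 8.15 FPKM in NPC DCH and 14.4 and 16.3 in grafts, log2FC 1.14 ± 0.21 and 1.02 ± 0.22), and so was Hoxd9 (2.43 FPKM against 5.45 and 6.35, log2FC 1.49 ± 0.27 and 1.42 ± 0.34). The call of Hoxd9 in uninjured grafts was lost without replicate 2 (1.21).

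The graft environments were compared next. Between 14-day SCI and uninjured grafts 1 of 28 was called lower and 0 higher (2.55% of all genes lower, 2.09% higher, 4.64% in all), with 8 at an unadjusted p below 0.05. DESeq2 called 6, and edgeR called 0 to 5 when single libraries were left out, 5 of them without 14-day SCI replicate 5. Shares over all genes here are those of edgeR with all libraries. The 1 called with all libraries was Hoxc10, with a log2FC of -2.39 ± 0.47 (adjusted p = 0.00556). Between dSCI and uninjured grafts edgeR called 0 of 28, with 3 at an unadjusted p below 0.05 and 1 call by DESeq2 (2.55% of all genes higher, 1.64% lower, 4.19% in all). Between dSCI and 14-day SCI grafts 1 of 27 was higher and 0 lower (1.29% of all genes, 0.538% and 1.83% in all), again Hoxc10, by 1.95 ± 0.38 (adjusted p = 0.00977). Both Hoxc10 calls were fragile. The first was lost without 14-day SCI replicate 1, 2, 3 or 4 or uninjured replicate 2 or 5 (log2FC -1.92 to -2.49), the second without 14-day SCI or dSCI replicate 1, 2, 3 or 4 (1.75 to 2.05).

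Over time in the lesion, 4 HoxB genes and no other were lower at 14 than at 5 days among 28 tested, and 0 were higher (2.58% of all genes lower, 2.72% higher, 5.30% in all). Hoxb8 was lower by -1.81 ± 0.30 (adjusted p = 0.00217), Hoxb7 by -1.65 ± 0.28 (adjusted p = 0.00281), Hoxb6 by -1.53 ± 0.30 (adjusted p = 0.00632), and Hoxb13 went from 491 counts to 0. Means of Hoxb6 were 23.5 and 7.12 FPKM and those of Hoxb7 17.2 and 4.84 FPKM. Hoxb6 lost its call without any of 8 of the 10 libraries (-1.39 to -1.58), Hoxb7 without 14-day or 5-day replicate 3 (-1.60 and -1.57) and Hoxb8 without 14-day replicate 2 (-1.72). The 5-day libraries were read as single reads, so time and read type cannot be told apart. HoxB is also the cluster that is high in NPC P15 D2, at 68.3% of the Hox FPKM against 60.3% in 5-day and 29.8% in 14-day SCI grafts, and the derivation behind each graft group is not named. NPC P15 D2 was read as single reads as well.

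Host libraries showed which Hox genes the Gfap-Cre astrocytes of the cord used, and other cells of the cord were not profiled. In healthy hosts the highest means were Hoxc8 (71.0 ± 12.9 FPKM, n = 9), Hoxb8 (41.0), Hoxb6 (27.4), Hoxc9 (23.8), Hoxc6 (23.2), Hoxa7 (22.5), Hoxd8 (19.7) and Hoxa5 (12.7). Groups 5 to 9 held 89.7 ± 1.04% of the Hox FPKM, and 84.8 ± 1.70% in host SCI, against 73.4 ± 0.738% in NPC DCH and 73.2 to 77.4% in the graft groups. Groups 1 to 4 held 7.92 ± 0.718% and 10.6 ± 1.36% in the hosts, 19.7% in NPC DCH and 19.6 to 25.5% in grafts. Between host SCI and host healthy 9 of 29 genes tested were lower and 2 higher (18.8% of all genes lower, 22.2% higher, 41.1% in all), the 9 being Hoxb3, Hoxb5, Hoxb6, Hoxc4, Hoxc5, Hoxc6, Hoxc8, Hoxc9 and Hoxd8. These were shifts of less than 1 on the log2 scale, the largest of the 9 in Hoxb6 (-0.96 ± 0.26, adjusted p = 0.00463) and Hoxc5 (-0.95 ± 0.12, adjusted p = 5.27e-06). The call of Hoxb6 was lost without host SCI replicate 1, 2, 3 or 4 (-0.83 to -0.96), and those of Hoxb5, Hoxc4 and Hoxc9 without 1 or more host SCI libraries. The 2 that were higher, Hoxa4 and Hoxd1 (0.57 ± 0.17 and 1.41 ± 0.40), lost their calls without any of 10 of the 14 libraries. The healthy libraries were not alike. Hoxc6 read 27.5 to 29.7 FPKM in replicates 1 to 4 and 17.4 to 19.8 in 5 to 9, and with replicates 1 to 4 alone 10 genes were called, with 5 to 9 alone 7, and with replicates 8 and 9, which like host SCI have almost no Y-linked counts, 1, Hoxc5 (-0.86). These subsets were chosen after seeing the data, by the Hox levels and Y-linked counts of the same libraries, so their counts are no separate check. A fit with fewer healthy libraries can also call fewer genes. For replicates 8 and 9, fewer libraries and the Y-linked counts cannot be told apart.

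Set beside the host, 14-day SCI grafts had 5 genes higher and 4 lower of 28 tested against host SCI (6.79% of all genes higher, 7.84% lower, 14.6% in all). Higher in the grafts were Hoxa2 (log2FC 1.39 ± 0.30, adjusted p = 0.00474), Hoxa3 (1.59 ± 0.19), Hoxa4 (1.24 ± 0.22), Hoxa5 (1.23 ± 0.17) and Hoxb3 (1.05 ± 0.21), all of groups 2 to 5. Lower were Hoxa9 (-2.44 ± 0.29), Hoxc8 (-2.35 ± 0.40, adjusted p = 0.00108), Hoxc9 (-1.88 ± 0.33) and Hoxc10 (-2.41 ± 0.26), all of groups 8 to 10. Hoxa2 lost its call without any of 8 of the 10 libraries (1.20 to 1.43) and Hoxb3 without host SCI replicate 1 (1.01). Uninjured grafts had 7 higher and 8 lower of 29 against host healthy (26.5% of all genes higher, 23.3% lower, 49.7% in all). Hoxb9 (1.30 ± 0.22, adjusted p = 5.82e-05) and Hoxa3 (1.08 ± 0.22) were among the higher ones, and Hoxc6 (-2.03 ± 0.32, adjusted p = 2.57e-05), Hoxc8 (-2.49 ± 0.21, adjusted p = 1.41e-08) and Hoxc9 (-2.06 ± 0.34) among the lower. Calls of Hoxa2, Hoxa4, Hoxb3 and Hoxd3 there were each lost without 1 or more single libraries, all 4 without uninjured replicate 2 or 3 (Hoxd3 at 0.74 without replicate 3).

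As a percent of the host mean, Hoxc6, Hoxc8 and Hoxc9 of grafts were below 100 in every graft group. Hoxc8 reached 20.0% in 5-day SCI, 19.9% in 14-day SCI and 51.2% in dSCI grafts of its level in host SCI, and 25.7% in uninjured grafts of its level in host healthy. Host SCI cells were taken 14 days after a single crush, so 5-day grafts differ from them in time and dSCI grafts in lesion. Hoxc6 reached 23.6, 29.1, 71.9 and 34.9% and Hoxc9 15.9, 27.4, 61.5 and 34.1%. Hoxc10 was at 38.99, 19.7, 79.9 and 184%. Hoxa5 stood at 212, 245, 190 and 206% of the host and Hoxb9 at 369, 131, 258 and 356%. These percents are of FPKM without TMM scaling. For uninjured grafts against host healthy they therefore read higher than the tested log2FC, by 0.55 on the log2 scale.

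The whole profile can be described by the rank correlation over the 39 genes of each library with a group mean. The genes are not independent, share clusters and include those near 0, so no p-value is given. Spearman's rho with NPC DCH averaged 0.761 in 5-day SCI, 0.690 in 14-day SCI, 0.640 in dSCI and 0.636 in uninjured grafts. With host SCI it averaged 0.806, 0.862 and 0.902 in the SCI and dSCI grafts, and with host healthy 0.895 in uninjured grafts. Hosts themselves had 0.546 (host SCI) and 0.529 (host healthy) with NPC DCH. All 15 grafts of 14 days lay nearer to the host (0.796 to 0.963) than to NPC DCH (0.593 to 0.752), whereas the 5-day ranges overlapped, 0.745 to 0.931 and 0.660 to 0.817. Other cultures came closer than NPC DCH, at 0.866 for 5-day SCI grafts with NPC P15 D2 and 0.842 for 14-day SCI grafts with SPONT. In CPM in place of FPKM, 14-day SCI grafts were closer to SPONT (0.844) than to host SCI (0.789). The 5-day SCI grafts and NPC P15 D2 are the 2 groups of single-read libraries, so likeness and read type cannot be told apart.

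Genes of regions in front of the Hox domain gave another view of axial identity. Of 12 rostral transcription factors, 7 were tested against NPC DCH, and 0 were higher and 3, 2, 0 and 3 lower in uninjured, 14-day SCI, dSCI and 5-day SCI grafts. In each of these comparisons most of all genes tested were called, at the shares given above with the Hox counts. En1, a factor of the midbrain-hindbrain boundary that also marks a class of spinal interneurons, read 45.4, 34.9, 38.6, 44.5 and 44.3 CPM in NPC DCH. It read 71.5, 53.5, 50.0, 14.2 and 55.1 CPM in 5-day SCI, 46.1, 37.9, 35.0, 45.5 and 19.6 in 14-day SCI, 15.6, 25.3, 48.7, 2.32 and 14.8 in dSCI and 37.8, 14.7, 21.2, 12.1 and 5.00 in uninjured grafts, and at most 0.453 in any host library. In 5-day SCI grafts 4 of the 5 libraries were above every NPC DCH library. The library with the lowest rostral sum (31.2, 46.2 and 16.2 CPM) was that with the highest HoxC share (23.4, 23.4 and 21.5%) in 5-day SCI, 14-day SCI and uninjured grafts. In dSCI grafts the library with the lowest, 6.31 CPM, had a HoxC share of 33.6%, which replicate 1 matched. These were replicates 4, 5, 5 and 4, and in 5-day SCI and dSCI they also had the highest myeloid sums, in uninjured grafts the highest neuron and myeloid sums, and in 14-day SCI the highest myeloid sum. The part of other cells in this was not tested.

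**Figure D5:**
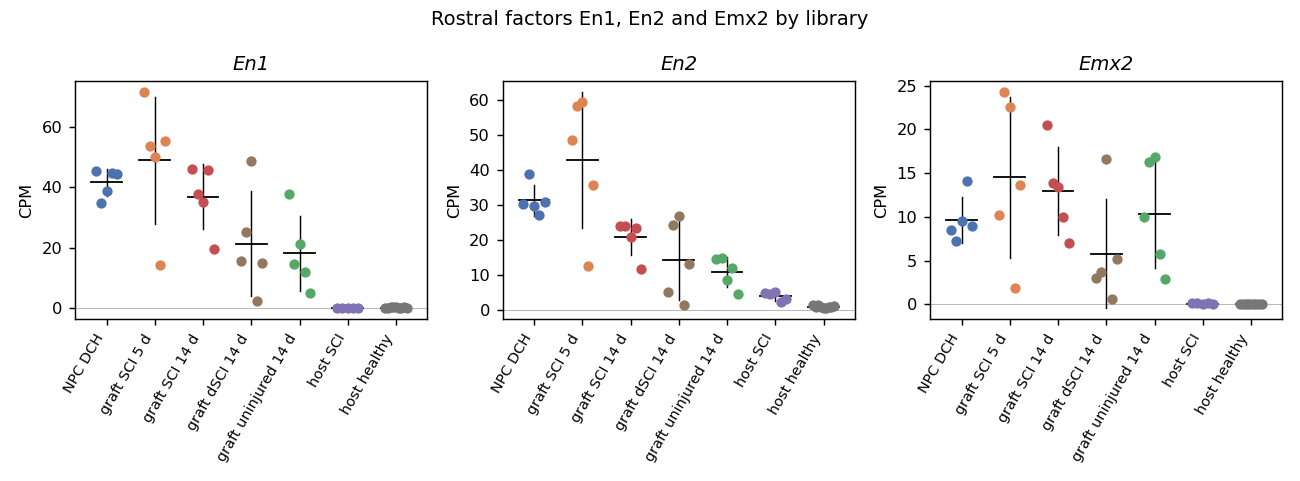
Points are libraries in replicate order, horizontal bars group means and vertical lines 1 SD, on linear CPM axes, for the rostral factors En1, En2 and Emx2. En1 is at 34.9 to 45.4 CPM in NPC DCH and at 2.32 to 71.5 CPM in grafts, and at or below 0.453 CPM in the hosts.

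Partners and regulators of Hox genes are given for their own sake. Most of all genes tested were called in each graft comparison, at the shares given above with the Hox counts, and the counts below stand beside those shares. Of 9 Pbx, Meis and Pknox cofactors, all tested, 2, 2, 2 and 3 were higher and 1 lower in uninjured, 14-day SCI, dSCI and 5-day SCI grafts against NPC DCH. The cofactor Meis3 was higher in each (log2FC 2.29 ± 0.39, 2.80 ± 0.34, 2.71 ± 0.36 and 2.53 ± 0.34) and Pknox1 lower in each (-1.45, -1.10, -1.11 and -1.26). Of 13 upstream regulators, 9 were tested, with 3, 5, 5 and 5 higher and 1, 2, 2 and 1 lower. Aldh1a2, which makes retinoic acid, was higher in each (7.36 ± 0.85, 5.10 ± 1.04, 8.12 ± 0.92 and 5.75 ± 0.92) and so was the receptor gene Rarg (0.81, 1.28, 1.46 and 1.29), while Rarb was lower in each (-1.23, -1.62, -0.93 and -1.45). Rarb was itself called higher in NPC DCH than in NPC media, by more than any of these falls (log2FC 1.98 ± 0.17, adjusted p = 9.22e-08). Its fall is therefore given for NPC DCH as reference only. Aldh1a2 is also a gene of meninges and fibroblasts, whose markers rose in each graft group. Of 10 Polycomb and trithorax genes, 1, 1, 2 and 1 were higher and 5, 5, 5 and 7 lower. Ezh2, the Polycomb methyltransferase of dividing cells, was lower in each (-3.09 ± 0.30, -2.55 ± 0.15, -2.63 ± 0.23 and -2.23 ± 0.14) and its counterpart of resting cells Ezh1 was higher in each (3.12, 2.48, 3.00 and 1.71).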

How the data were processed

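RiboTag-precipitated RNA of 107 libraries was analysed. The deposited values are gene counts, which the authors made by trimming reads with Trimmomatic, aligning them to mm10 with HISAT2 and counting reads per Entrez gene with featureCounts. Both mates of a pair appear to have been counted, since even counts made up 53.1 to 73.8% of low counts in paired and 43.1 to 48.5% in single-read libraries, so counts are not independent molecules.

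From the counts, CPM was computed on library totals and FPKM on summed exon lengths of GENCODE M21, and neither was TMM-scaled. Tests were run in R 4.3.3 with edgeR 4.0.16 (quasi-likelihood, TMM scaling, filterByExpr with a minimum count of 10, only the groups compared in a fit), called at a Benjamini-Hochberg adjusted p below 0.01 over all genes tested. Heatmap values carry a pseudocount of 0.1, and folds against a group at 0 used a floor of 3 counts over the group, which covers counting error only. Alternatives were DESeq2 1.42.0, its size factors, no filter, a replicate block, other NPC groups as reference, CPM for FPKM and leaving out each library. Shares over all genes are those of edgeR with all libraries. Counts under the alternatives or in subsets of libraries therefore stand without a share of their own. TMM moved the median of all genes by up to 0.55 (uninjured grafts against host healthy), and by 0.33 and 0.29 for 14-day SCI and dSCI grafts against NPC DCH. Adding this shift turned no called Hox direction.

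The members and gene lists were chosen with earlier results of these data known. Genes named are the 8 highest in NPC DCH and in host healthy, called members of at least 1 CPM (at most 8 by size in graft comparisons), all called members where 5 or fewer were called, and members of paralog groups 10 to 13 that reach 1 CPM. The remaining named genes were chosen after their values were seen. Values of 1 member, which enters the counts and sums, are not reported here. The fit was tested on simulated data. For 14-day SCI grafts against NPC DCH it recovered 30 of 100 genes changed 2-fold and 61 of 100 changed 4-fold among 14692.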

Additional observations from a re-analysis of the deposited data

Results flagged for a closer look

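Among 131 groups of 4 to 10 libraries, 18 held a library whose FPKM stood apart from the others of its group by Dixon's criterion at 95%, which chance does in about 1 of 20 groups. Replicate 5 of the uninjured grafts stood high for Hoxb8 (104 FPKM, next 54.0), Hoxc8 (29.5, next 17.4) and Hoxb7 (19.7, next 9.71), and replicate 3 for Hoxa6 (6.13, next 2.90). Replicate 4 of the 5-day SCI grafts stood high for Hoxc9 (8.67, next 2.21), Hoxc10 (10.1, next 3.04) and Hoxa7 (13.7, next 9.93). In 14-day SCI grafts this held for replicate 4 in Hoxb8 (33.3, next 18.5) and Hoxb6 (12.2, next 6.41), replicate 2 in Hoxa7 (17.9, next 13.8) and replicate 5 in Hoxa6 (6.69, next 1.33). Replicate 5 of the dSCI grafts was low for Hoxb8 (11.7, next 28.0). Host SCI replicate 5 was high for Hoxc8 (69.1, next 45.3), Hoxa7 (25.3, next 17.8) and Hoxb7 (13.4, next 8.23). In NPC DCH, replicate 4 was high for Hoxa10 (20.96, next 15.7) and Hoxd8 (11.9, next 7.38), and replicate 2 low for Hoxa6 (10.4, next 15.4).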

How the results depend on the processing

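Some directions of grafts against NPC turned with the NPC used as reference, and the derivation grafted is not named. Against NPC P15 D2 in place of NPC DCH, log2FC became 1.08, 1.11 and 4.58 for Hoxa6, Hoxa7 and Hoxa10 in uninjured grafts, and 0.026, 0.54, 1.06, 6.29 and 3.56 for Hoxa3, Hoxa5, Hoxa7, Hoxa9 and Hoxa10 in 14-day SCI grafts. It became 0.12, 1.07, 1.06, 7.07 and 4.35 for Hoxa5, Hoxa6, Hoxa7, Hoxa9 and Hoxa10 in dSCI grafts, and 0.058 and 0.36 for Hoxa5 and Hoxa7 in 5-day SCI grafts. Against NPC P15 D3 it became 0.014 and 1.66 for Hoxa7 and Hoxa10 in uninjured grafts, 3.39, 0.65, 0.53 and 1.20 for Hoxa9, Hoxa10, Hoxb8 and Hoxb9 in 14-day SCI grafts, 4.15, 1.42, 0.80 and 2.07 for the same 4 in dSCI grafts and 0.40 and 2.45 for Hoxa10 and Hoxb9 in 5-day SCI grafts. Against NPC P15 it became -0.27 and -0.23 for Hoxc4 and Hoxc5 in uninjured grafts, 0.62 for Hoxa9 in 14-day SCI grafts, and 1.37 and -0.11 for Hoxa9 and Hoxc4 in dSCI grafts, where 8 genes were called. SPONT against NPC P15 D3 gave 0.70 for Hoxb5 and 1.15 for Hoxb6. Hoxc6, Hoxc8, Hoxc9 and Hoxc10 kept their direction throughout, but against NPC P15 the calls of Hoxc9 (2.72) and Hoxc10 (2.87) in 5-day and Hoxc10 (2.06) in 14-day SCI grafts were lost. Rank correlations with NPC P15, D2 and D3 were 0.725, 0.711 and 0.695 for uninjured, 0.782, 0.770 and 0.785 for 14-day SCI, and 0.735, 0.713 and 0.712 for dSCI grafts, and with NPC P15 and D2 0.842 and 0.866 for 5-day SCI grafts.

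DESeq2 called 2 genes for IGF-1, 1 for 1% FBS, 20 for 5-day SCI grafts against NPC DCH, 6 for 14-day SCI against uninjured grafts and 1 for dSCI against uninjured grafts. The single call between dSCI and 14-day SCI grafts became 0 with DESeq2 size factors and 0 with no filter. In CPM in place of FPKM, groups 10 to 13 held 8.20% in NPC DCH and 3.99% in host SCI, and 14-day SCI grafts had a rank correlation of 0.789 with host SCI. That was below their correlations with SPONT (0.844), NPC P15 D3 (0.801) and NPC P15 (0.792). Healthy replicates 5 to 9 gave 7 calls and replicates 8 and 9 gave 1. These smaller subsets were chosen by Hox levels and Y-linked counts after seeing the data. Leaving out single libraries gave 1 to 4 calls for CNTF, 0 to 6 for IGF-1 (6 without SPONT replicate 2), 0 to 1 for 1% FBS, 0 to 5 for 14-day SCI against uninjured grafts (5 without 14-day SCI replicate 5), 0 to 1 for dSCI against 14-day SCI grafts, 2 to 4 for 14-day against 5-day SCI grafts and 6 to 12 for host SCI against host healthy (6 without host SCI replicate 1 or 2). The causes were not tested.

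Replicate numbers were not shown to pair libraries, since in no comparison did every same-numbered pair correlate above 0.1. With the replicate number as a block, CNTF, dSCI against 14-day SCI grafts and 14-day against 5-day SCI grafts each had 0 calls and uninjured grafts against host healthy had 8, and of 231 called genes over all comparisons 196 kept their call.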
